A study of Mus musculus with 15 samples.

Results

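Igsf21, Rab15, Arhgap9, Arhgdig, Tmem171 and Piwil2 are 6 genes of adhesion, small GTPase signalling, membrane and small RNA biology that were chosen by their fold change, as genes outside lipid metabolism with much higher tag counts in gastrocnemius muscle of Cpt1b knockout mice. They are 6 of the 13602 gene symbols with counts, and each was found by its symbol. All 6 passed the filter on low counts, which left 11062 genes. Because the difference between the groups chose them, that difference is given as a description without a test. The tested question was another, namely whether the 6 genes vary together, and with the fatty acid binding protein gene Fabp3, from animal to animal within a group.

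Muscle was taken from 7 male knockouts, in which Cpt1b is deleted in skeletal muscle, and from 8 male controls labelled wild type (floxed). Cpt1b encodes the muscle form of carnitine palmitoyltransferase 1, which controls the entry of long-chain fatty acids into mitochondria. The labels conflict on diet, since titles and design text name chow (12 to 14 weeks) but each sample's diet entry is 45% HFD. The Cre line, the deleted part of the gene and the age of the mice are not given in the sources used here. Total RNA of the whole muscle was made into SOLiD SAGE libraries, a method that counts transcripts by 1 short stretch close to the polyA tail. In such bulk samples, fewer cells of a type and less RNA per cell cannot be told apart.

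Small GTPases are molecular switches that are active with bound GTP. Rab proteins steer membrane traffic, and Rac1 and Cdc42 organise actin. GTPase-activating proteins (GAPs) switch small GTPases off, and GDP-dissociation inhibitors (GDIs) hold them inactive in the cytosol. Igsf21 is an immunoglobulin superfamily adhesion protein known from inhibitory synapses, where it binds neurexin. Rab15 acts on early and recycling endosomes and is best known from neurons. Arhgap9 is a GAP for Cdc42 and Rac1 known mainly from blood cells. Arhgdig is a GDI known from brain. Piwil2 is a Piwi protein that binds piRNAs and silences transposons in the male germ line. Tmem171 encodes a transmembrane protein whose function is little known.

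The measurement of each gene rests on its tag, so the tag predicted for the main coding transcript of each gene is shown, as the 27 bases that begin at the CATG nearest the 3' end in the GENCODE M21 transcripts (GRCm38). The capitals mark CATG, the site of the anchoring enzyme commonly used for SAGE. The enzyme of this study is not given in the sources used here, and the deposited counts are per gene and not per tag.
Igsf21: CATGtcttggcttcctcactgggttta
Rab15: CATGacctgagatcaactcaccctggt
Arhgap9: CATGacaggtgatgcttgttctcagta
Arhgdig: CATGtctgccaggactggaaggactga
Tmem171: CATGgattactattttatttaatttgt
Piwil2: CATGgcttttggagtctatgaccaagg

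None of these tags occurred in a GENCODE transcript of any other gene. The tag of Arhgdig (chromosome 17, 26199330 to 26199356, minus strand) includes the stop codon in exon 6, and the other 5 lie in the 3' UTR. They are at chromosome 4, 140026879 to 140026905 (Igsf21, minus strand, exon 10), chromosome 12, 76798098 to 76798124 (Rab15, minus, exon 7) and chromosome 10, 127329867 to 127329893 (Arhgap9, plus, exon 16). The tag of Tmem171 is at chromosome 13, 98686263 to 98686289 (minus, exon 4), and that of Piwil2 at chromosome 14, 70372754 to 70372780 (minus, exon 23). The tag of Arhgap9 overlaps an exon of Gli1, which lies on the other strand, and whether strand was used in counting is not given in the sources used here. Gli1 itself had a log2 difference of -0.42 ± 0.24 (SE, edgeR adjusted p = 0.468). The tag belongs to 1 of 6 annotated coding transcripts of Rab15, 1 of 2 of Tmem171, 1 of 2 of Piwil2 and 2 of 3 of Arhgap9, so other isoforms of these genes would give other tags.

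Library totals ran from 8334436 to 19397255 tags. Cpt1b averaged 3.79 ± 1.64 CPM in knockouts and 7.64 ± 3.17 CPM in controls (SD, n = 7 and n = 8; CPM, tags scaled to the TMM-adjusted library size), with overlapping groups and an edgeR adjusted p of 0.103 (0.0309 with DESeq2). A tag at the 3' end may lie outside the deleted part of the gene, so this level does not check the labels. All 11 muscle fibre markers had counts, and their summed level was 124000 to 183000 CPM in knockouts (median 145000) and 133000 to 207000 CPM in controls (median 193000). Of the 11, 2 had a positive log2 difference, and 3 had an unadjusted p under 0.05 by edgeR. Control replicate 7 and knockout replicate 4 lay farthest out on the leading principal component of the deviations from the group means, which held 45.7% of that variance, and counts without them are given in the closing section. Of all tested genes 1.67% were called higher in the knockout and 0.497% lower, 2.17% in either direction (edgeR, adjusted p under 0.05), and 13.6% had an unadjusted p under 0.05. In 0.967% the lowest knockout exceeded the highest control. This was so for 5 of the 6 genes, all but Piwil2, and since this contrast chose them the count says nothing more.

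Igsf21 had the largest difference of the 6 genes. Its level was 11.7 CPM in the lowest, 21.8 in the median and 26.9 in the highest knockout, against 0.424, 2.88 and 3.97 CPM in controls. The means were 20.7 ± 5.89 CPM in knockouts and 2.56 ± 1.14 CPM in controls (SD, n = 7 and n = 8), and the fitted log2 difference was 3.04 ± 0.32 (SE). The lowest library of each group was knockout replicate 4 and control replicate 7, the same libraries that stood apart on the leading component.

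Rab15 ranged from 7.12 through a median of 8.96 to 13.2 CPM in knockouts, against 0.870, 1.57 and 3.21 CPM in controls. The means were 9.65 ± 2.03 CPM in knockouts and 1.76 ± 0.754 CPM in controls (SD), and the log2 difference was 2.42 ± 0.23 (SE). The highest libraries were knockout replicate 2 and control replicate 3. Only 9 to 47 tags per control library stood behind its control level.

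Arhgap9 and Arhgdig, the GAP and the GDI, differed in their spread over the animals. Arhgap9 had 16.1, 19.0 and 22.6 CPM as the lowest, median and highest knockout value, against 3.85, 4.53 and 8.41 CPM in controls. This log2 difference of 1.95 ± 0.17 (SE) was the smallest of the 6, and the knockout libraries lay closest together, with a coefficient of variation of 14.2%. Counting error alone would give 6.53%. Control replicate 4 stood above the other controls. Arhgdig had 1.39, 2.78 and 4.54 CPM in knockouts, against 0.163, 0.404 and 0.967 CPM in controls, a log2 difference of 2.57 ± 0.35 (SE). It was the rarest of the transcripts, with 17 to 93 tags per knockout library and 2 to 14 per control library. Counting error alone would give a coefficient of variation of 41.0% among controls, where 64.4% was measured.

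Tmem171 had 5.95, 9.27 and 15.9 CPM as the lowest, median and highest knockout value, against 0.716, 1.23 and 4.92 CPM in controls. It averaged 10.1 ± 3.93 CPM in knockouts and 1.78 ± 1.38 CPM in controls (SD), a log2 difference of 2.46 ± 0.36 (SE). Knockout replicates 2 and 4 were the highest knockouts, and control replicate 3, with 72 tags, was the highest control and lay close to the lowest knockout.

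Piwil2 was high in some knockout animals only. Replicates 1, 2 and 7 had 27.9, 14.8 and 5.98 CPM, while the other 4 knockouts had 1.47 to 2.01 CPM. The controls ranged from 0.621 to 1.97 CPM with a median of 1.54 CPM, so 2 of the 7 knockouts lay within their range. The log2 difference of 2.39 ± 0.59 (SE) became 1.62 without knockout replicate 1 and 1.56 with the replicate number as a block, though these numbers do not mark pairs. The coefficient of variation among knockouts was 126%, where counting error alone would give 10.1%, against 29.6% measured and 23.9% from counting among controls.

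**Figure D1:**
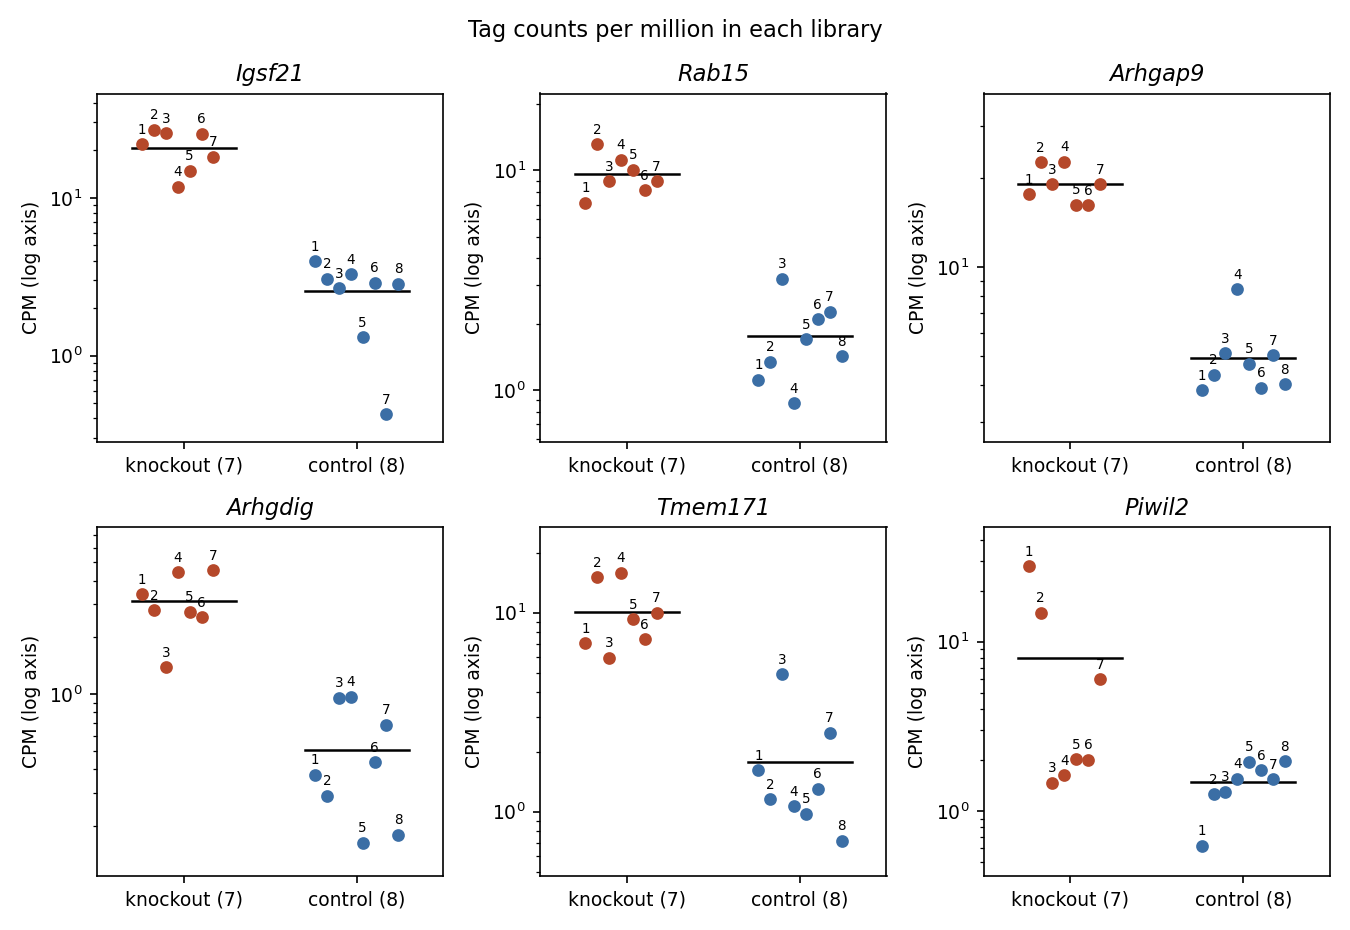
CPM (log axis) of the 6 genes in each of the 7 knockout libraries (red, left) and 8 control libraries (blue, right); the number beside a point is its replicate and the black line is the group mean. The groups are separate for 5 genes, and for Piwil2 knockout replicates 1, 2 and 7 stand above the rest.

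Gm6570, the second most like gene to Piwil2 in its pattern, was high in the same 3 animals. For each gene, all other tested genes with a mean of at least 20 tags were ranked by the Pearson r of deviations from the group means over the 15 libraries, which is a description of likeness and says nothing of shared function or control. Among 9935 genes, Piwil2 was most like Crybg3 (r = 0.848), Gm6570 (r = 0.837) and Txnl4a (r = 0.775). Gm6570 is a protein-coding gene on another chromosome (chromosome 3, 87679643 to 87680025, RefSeq, GRCm38.p6). It had 44.8, 12.1 and 26.4 CPM in knockout replicates 1, 2 and 7 and 0.524 to 1.22 CPM in the other 4 knockouts, against 0.435 to 2.79 CPM in controls. Within the knockouts its r with Piwil2 was 0.923, and within the controls it was -0.176. Gm6570 had 6 to 29 tags in controls and 7 to 11 tags in the other 4 knockouts. It therefore met the minimum mean of 20 tags only through knockout replicates 1, 2 and 7, the animals in which Piwil2 was high. The r in controls rests on small counts of both genes, with 5 to 29 tags of Piwil2. Gm6570 itself did not pass the test between the groups (log2 difference 3.19 ± 0.86, SE, edgeR adjusted p = 0.0633), nor in 11 of the 15 edgeR fits without a single library, and it passed with DESeq2 (adjusted p = 0.0127). Crybg3 and Txnl4a spanned a much narrower range, with 20.3 to 31.1 CPM and 75.5 to 117 CPM in knockouts, against 20.2 to 23.9 CPM and 76.6 to 98.1 CPM in controls.

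**Figure D2:**
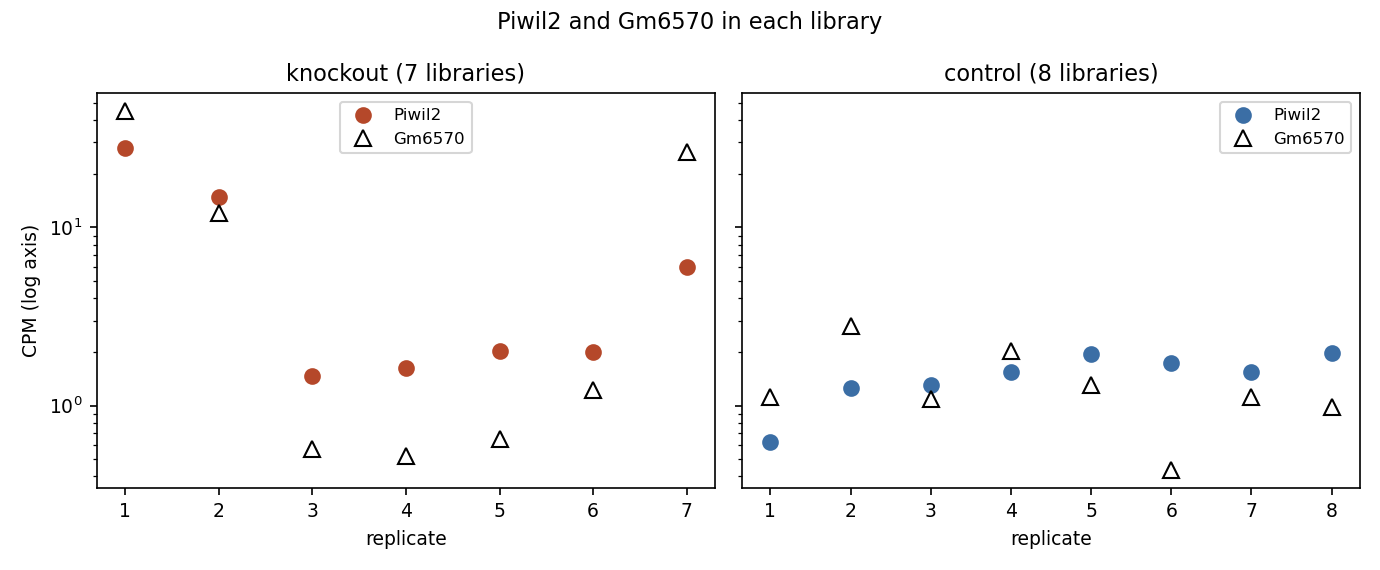
Level of Piwil2 (filled circles) and Gm6570 (open triangles) in CPM (log axis) by replicate number, knockouts left and controls right. Both genes are high in knockout replicates 1, 2 and 7; the lowest of these 6 values is 5.98 CPM.

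No pair of genes varied together past the threshold within either group. For the 21 pairs of the 6 genes and Fabp3, Pearson r of log2 CPM was computed over the 7 knockouts and over the 8 controls, with two-sided exact permutation tests and Benjamini-Hochberg adjustment over the 42 relations. The number of pairs past an adjusted p of 0.05 was 0 in each group, with 1 pair in knockouts and 2 in controls under an unadjusted p of 0.05. With so few animals, a pair missing the threshold is not shown to be uncorrelated. The median r was 0.258 in knockouts, where 15 of the 21 pairs were positive, and -0.0438 in controls, where 10 of 21 were positive. All values share the scaling of their library. The counts of Arhgdig are small, as are those of Igsf21, Rab15, Tmem171 and Piwil2 in controls.

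Rab15 and Tmem171 came closest and were the only pair with an r above 0.7 in each group. In knockouts r was 0.829 (exact permutation p = 0.0228, adjusted p = 0.352, n = 7) and Spearman's coefficient was 0.679 (exact permutation p = 0.110). In controls r was 0.716 (exact permutation p = 0.0427, adjusted p = 0.352, n = 8) and Spearman's coefficient was 0.524 (exact permutation p = 0.197). Without the 2 libraries farthest from the median of Rab15, r was 0.794 in knockouts and 0.394 in controls, and leaving out single controls gave 0.405 to 0.790, so the relation among controls rests in large part on control replicate 3, the highest control for both genes. When the deviations from the group means were pooled over the 15 libraries, r was 0.739, with a permutation p of 0.00396 and 0.0832 after adjustment over 21 pairs. These pooled deviations ranked Tmem171 at place 108 of the 9935 genes by likeness to Rab15.

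The r of Tmem171 with Arhgdig was 0.607 in knockouts (exact permutation p = 0.148, adjusted p = 0.622, n = 7) and 0.685 in controls (exact permutation p = 0.0535, adjusted p = 0.352, n = 8). The pooled r was 0.660, with an adjusted permutation p of 0.117. Igsf21 was at the other end. Its r with Arhgdig, Tmem171, Rab15 and Arhgap9 was -0.609, -0.472, -0.203 and -0.153 in knockouts, and -0.0636, -0.245, -0.444 and -0.0750 in controls, each with an adjusted p of 0.622 or more in the exact permutation tests. By Spearman's coefficient, Igsf21 and Rab15 stood at 0.00 in knockouts and -0.810 in controls (exact permutation p = 0.0218, adjusted p = 0.560, n = 8).

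**Figure D3:**
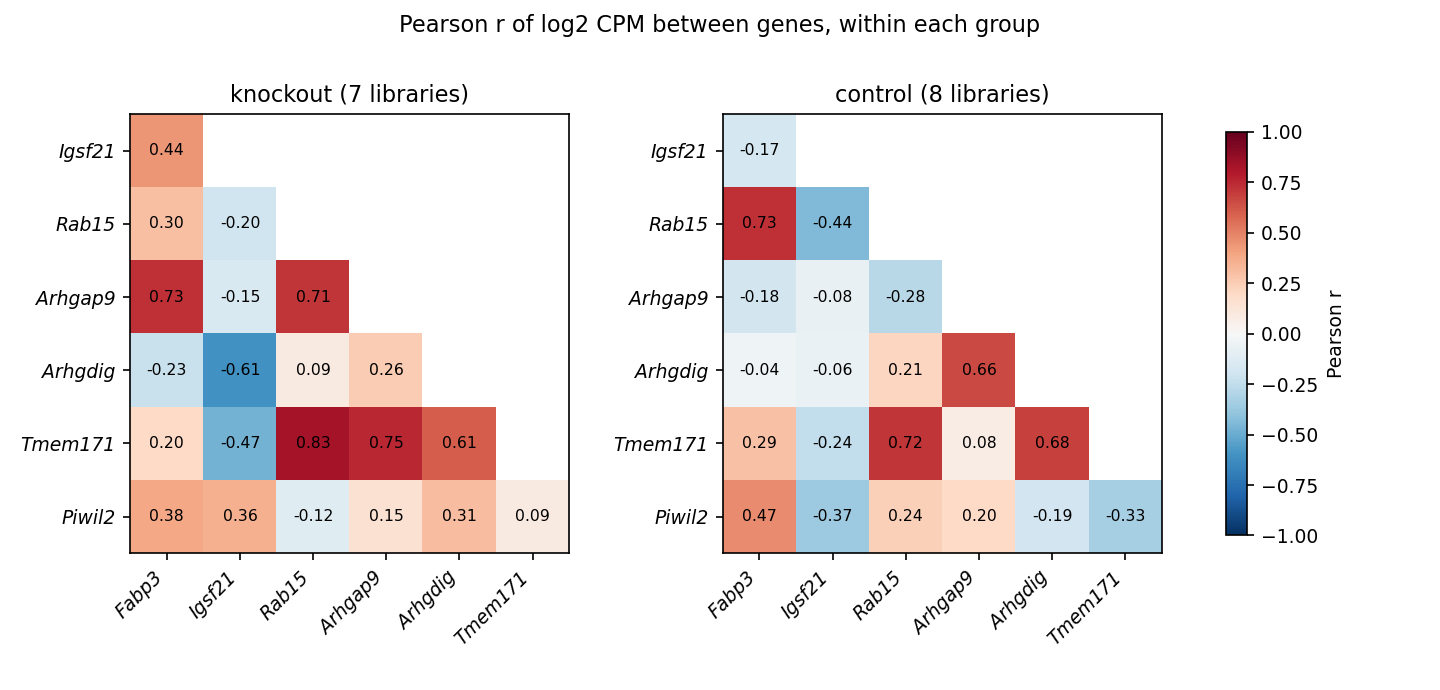
Pearson r of log2 CPM for each of the 21 pairs of Fabp3 and the 6 genes, within the 7 knockouts (left) and the 8 controls (right); red is positive and blue negative. Rab15 with Tmem171 is above 0.7 in each group, and Igsf21 is negative with Rab15, Arhgap9, Arhgdig and Tmem171 in each.

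Fabp3, which binds fatty acids in the cytosol of heart and muscle, averaged 4037 ± 943 CPM in knockouts and 1000 ± 241 CPM in controls (SD, n = 7 and n = 8; log2 difference 2.01 ± 0.18, SE, edgeR adjusted p = 1.37e-06). None of the 6 genes followed Fabp3 past the threshold within a group. In knockouts the closest was Arhgap9 (r = 0.732, exact permutation p = 0.0587, adjusted p = 0.352, n = 7; Spearman's coefficient = 0.571, exact permutation p = 0.200), whose r in controls was -0.181. Without the 2 knockouts farthest from the median of Fabp3 this r was 0.420. In controls the closest was Rab15 (r = 0.730, exact permutation p = 0.0450, adjusted p = 0.352, n = 8; Spearman's coefficient = 0.738, exact permutation p = 0.0458), whose r in knockouts was 0.297. Without the 2 controls farthest from the median of Fabp3 it was 0.666. The remaining r with Fabp3 lay between -0.225 for Arhgdig and 0.441 for Igsf21 in knockouts, and between -0.175 for Igsf21 and 0.474 for Piwil2 in controls.

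**Figure D4:**
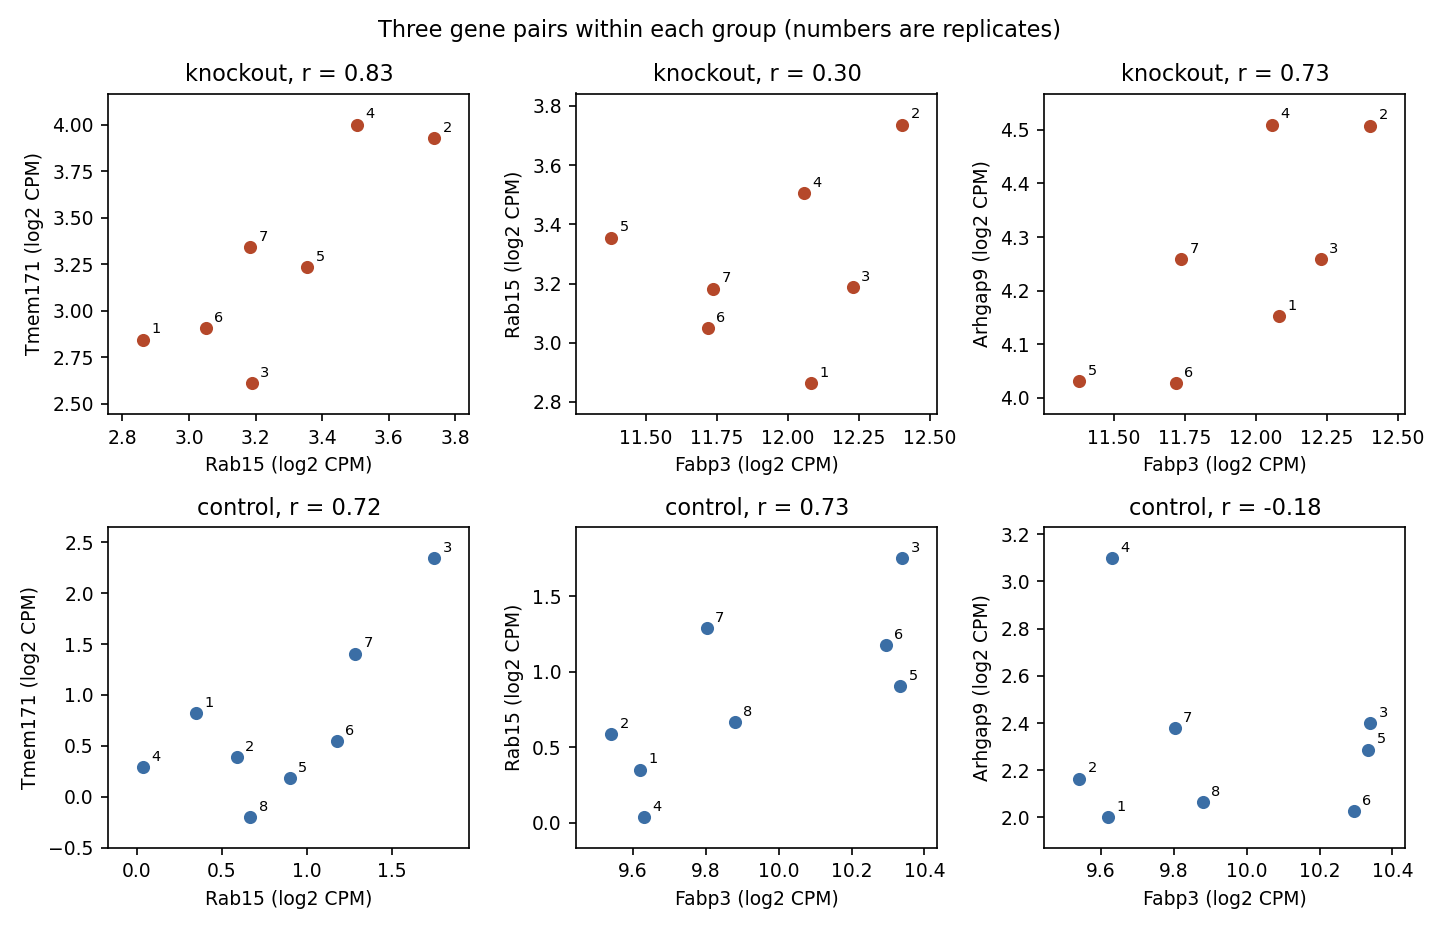
Log2 CPM of 3 gene pairs, knockouts above (red) and controls below (blue), with each point numbered by its replicate. For Rab15 and Tmem171 r is 0.83 in knockouts and 0.72 in controls; the r with Fabp3 reaches 0.73 for Arhgap9 in knockouts and for Rab15 in controls, and no pair passed after adjustment.

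The 6 genes were set against the size and the leading component of their libraries in 24 relations, of which 0 passed after adjustment and 5 had an unadjusted p under 0.05 in exact permutation tests. Igsf21 had an r of -0.870 with the leading component in knockouts (exact permutation p = 0.0115, adjusted p = 0.171, n = 7) and -0.755 in controls (exact permutation p = 0.0387, adjusted p = 0.186, n = 8). Tmem171 had 0.799 in knockouts and 0.643 in controls, and Rab15 had 0.628 in knockouts and 0.655 in controls. Without the 2 libraries farthest from the median of the component, r was -0.636 in knockouts and -0.179 in controls for Igsf21, 0.651 in knockouts and -0.764 in controls for Tmem171, and 0.590 in knockouts and 0.160 in controls for Rab15. The control relations thus rest on those libraries. With the library total the highest r was that of Rab15 in controls (r = 0.758, exact permutation p = 0.0286, adjusted p = 0.172, n = 8), and that of Arhgap9 in knockouts (r = 0.765, exact permutation p = 0.0143, adjusted p = 0.171, n = 7), whose r in controls was 0.0745. Without the 2 libraries farthest from the median total, r was 0.875 for Rab15 in controls and 0.584 for Arhgap9 in knockouts. Spearman's coefficient was 0.905 for Rab15 in controls (exact permutation p = 0.00456). Fabp3, outside the 24 relations, had an r of 0.581 with the library total in controls (exact permutation p = 0.122) and 0.365 in knockouts. Without the 2 farthest libraries the r of Fabp3 was 0.939 in controls and 0.613 in knockouts. The part of these measures in the correlations between genes was not tested. Against Cpt1b itself 0 of 12 relations passed and 1 had an unadjusted p under 0.05, that of Igsf21 in knockouts (r = 0.857, exact permutation p = 0.00972, adjusted p = 0.117, n = 7; 0.0782 in controls). Spearman's coefficient for this pair in knockouts was 0.714 (exact permutation p = 0.0881). Without the 2 knockouts farthest from the median of Cpt1b, r was 0.685. Knockout replicate 4 was the lowest knockout for both genes, with 23 tags of Cpt1b.

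The genes most like each of the others were mostly genes that did not differ between the groups. Igsf21 was most like Scamp2 (r = 0.974), Jmjd6 (0.957) and Skp2 (0.955). Scamp2, a secretory carrier membrane protein, had 153 CPM in knockout replicate 4 and 50.1 CPM in control replicate 7, the lowest value of each group, and without these 2 libraries its r with Igsf21 was 0.915. Its log2 difference between the groups was -0.05 ± 0.35 (SE, edgeR adjusted p = 0.957), against 3.04 for Igsf21. Rab15 was most like Fam126b (0.883), Snx27 (0.866), a sorting nexin of endosomal recycling, and Tspan2 (0.847). Among the genes most like Arhgap9 were B4galt4 (0.861) and 3110003A17Rik (0.849), and Arhgdig was most like Rbpj (0.852), Zfp207 (0.851) and Actn1 (0.842).

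Tmem171 was most like Gpc4 (0.893), Slc10a7 (0.871) and Acot2 (0.851). Acot2, a mitochondrial acyl-CoA thioesterase whose tags may be shared with close relatives, was the only gene among these likeness lists that was also called between the groups. It averaged 365 ± 88.7 CPM in knockouts and 73.6 ± 17.5 CPM in controls (SD, n = 7 and n = 8; log2 difference 2.31 ± 0.18, SE, edgeR adjusted p = 2.81e-07). Its r with Tmem171 was 0.879 within the knockouts and 0.894 within the controls. The highest libraries of both genes were knockout replicate 4 and control replicate 3.

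Few relatives of Rab15, Igsf21 and Piwil2 passed the test. Of 39 other Rab GTPases tested, 1 rose and 0 fell, and the median log2 difference was -0.08, against 0.00 over all tested genes. Rab27a, a Rab of secretory granule transport, averaged 4.21 ± 1.86 CPM in knockouts and 1.60 ± 0.590 CPM in controls (SD; log2 difference 1.37 ± 0.30, SE, edgeR adjusted p = 0.0194). It passed without any single control, but not without knockout replicate 2 (edgeR adjusted p = 0.0648) or 7 (edgeR adjusted p = 0.0528). With the replicate block, whose numbers do not mark pairs, it did not pass either (edgeR adjusted p = 0.163).

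Of 20 genes of endosomal recycling 0 were called by edgeR and 15 had a positive log2 difference, against 50.6% of all tested genes (median 0.13, 3 under an unadjusted p of 0.05, against 13.6% of all tested genes). The gene with the smallest p was Ehd2, which was lower (-0.54 ± 0.23, SE, edgeR adjusted p = 0.322). Of 20 genes of synaptic and immunoglobulin-type adhesion 0 were called and 15 had a negative log2 difference (median -0.20, 2 under an unadjusted p of 0.05), the closest being Cadm3 (-0.54 ± 0.18, SE, edgeR adjusted p = 0.153). Of 28 listed Piwi and Argonaute pathway genes 10 had counts and 7 were tested, and no other Piwi gene was among those tested. Of these 7 genes 0 were called (median -0.18, 2 under an unadjusted p of 0.05), the closest being Wdr77 (0.31 ± 0.12, SE, edgeR adjusted p = 0.255). DESeq2 called 1 gene of these families higher and 1 lower. Read against the 1.67% of all genes called higher and the 0.497% called lower, these counts of called genes are near the background.

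**Figure D5:**
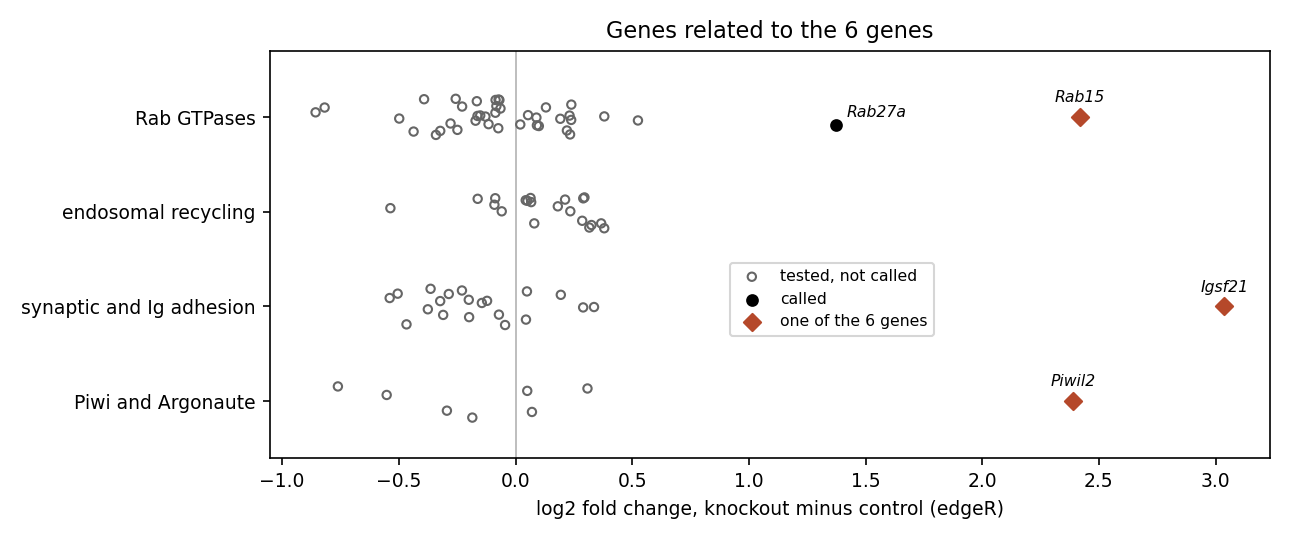
Fitted log2 fold change, knockout minus control, of each tested gene in 4 related families (open circles not called, filled circles called by edgeR at an adjusted p under 0.05) and of Rab15, Igsf21 and Piwil2 (red diamonds), whose family is on that row. Rab27a at 1.37 is the called relative, and the red diamonds lie between 2.39 and 3.04.

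No marker of the cell types in which these genes are better known passed the test. Of 18 leukocyte markers 13 had counts and 7 were tested. All 7 had a negative log2 difference, 0 were called by edgeR (2 under an unadjusted p of 0.05, against 13.6% of all tested genes), and the summed level was 103 to 191 CPM in knockouts and 90.9 to 257 CPM in controls. Most of that level was Cd74, which averaged 120 CPM in knockouts and 134 CPM in controls. The pan-leukocyte gene Ptprc averaged 1.77 CPM in knockouts and 2.02 CPM in controls. Arhgap9, which lay between these markers, averaged 19.0 CPM in knockouts and 4.93 CPM in controls. Of 10 neuron markers 3 were tested and 0 called (2 under an unadjusted p of 0.05), with a summed level of 12.2 to 19.5 CPM in knockouts and 15.3 to 26.6 CPM in controls, and of 8 Schwann cell markers 5 were tested and 0 called (46.4 to 145 CPM in knockouts and 51.5 to 143 CPM in controls). Of 12 germ cell markers 2 were tested and 0 called (1 under an unadjusted p of 0.05; Sycp3, log2 difference 0.81 ± 0.24, SE, edgeR adjusted p = 0.0923, while Dazl had -0.28 ± 0.29), with a summed level of 3.20 to 4.99 CPM in knockouts and 1.26 to 3.63 CPM in controls. Ptprc and the marker genes named with values were picked after their values were seen. The part of these other cell types in the levels of the 6 genes was not tested.

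Of 11 tested genes of the neuromuscular junction 1 rose and 0 fell, against 1.67% higher and 0.497% lower of all tested genes. Of the 11, 6 had a positive log2 difference (median 0.06), and 3 had an unadjusted p under 0.05, against 13.6% of all tested genes. Among those not called, Lrp4 had a log2 difference of 0.76 ± 0.28 (SE) and Rapsn of 0.42 ± 0.16 (SE). Musk went the other way (-0.53 ± 0.29, SE). The summed level of the list was 235 to 361 CPM in knockouts and 198 to 280 CPM in controls. The gene that rose was Chrna1, the alpha subunit of the muscle acetylcholine receptor, with 134 ± 33.4 CPM in knockouts and 81.2 ± 11.6 CPM in controls (SD; log2 difference 0.73 ± 0.16, SE, edgeR adjusted p = 0.0145). It passed in each of the 15 fits without a single library, but not with the replicate block (edgeR adjusted p = 0.190), whose numbers do not mark pairs. Chrna1 was the most abundant gene of the list and held a large part of its summed level. The next most abundant, Utrn, averaged 75.7 CPM in knockouts and 76.9 CPM in controls. Among the remaining marker lists, to be read against the same 0.497%, 1 of 11 muscle fibre genes fell (Tnnt3, edgeR adjusted p = 0.00629, and 0.0984 with the replicate block) and 1 of 7 adipocyte genes fell (Lep, edgeR adjusted p = 0.0295), the Lep call being lost in 9 of the 15 fits without a single library. Of 6 endothelial, 6 fibroblast, 5 smooth muscle and 4 satellite cell markers 0 were called by edgeR, with 0, 3, 1 and 0 under an unadjusted p of 0.05, against 13.6% of all tested genes. The summed fibroblast level was 1230 to 3080 CPM in knockouts (median 1780) and 2180 to 3850 CPM in controls (median 3470). Of its genes, Col1a1 had a log2 difference of -1.03 ± 0.30 (SE, edgeR adjusted p = 0.0863) and Col1a2 of -0.64 ± 0.21 (SE). Lum (0.16 ± 0.15, SE) and Pdgfra (0.03 ± 0.15, SE) had positive differences. Col1a1 was the most abundant of the list, with 815 CPM in knockouts and 1670 CPM in controls, and weighs most in the summed level. The part of the fibroblast level in the values of the 6 genes was not tested.

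The genes lie on 6 different chromosomes, none of them chromosome 15, which holds Cpt1b. Of the nearest tested genes on each side of the 6, 12 in all, 0 were called by edgeR, against 2.17% of all tested genes. An unadjusted p under 0.05 was found for 1 of them, against 13.6% of all tested genes, so both counts are near the background. This 1 gene was Itfg3 beside Arhgdig, with a log2 difference of 0.75 ± 0.23 (SE, edgeR adjusted p = 0.114). Rab15 lies inside the span of Fntb on the other strand (log2 difference 0.81 ± 0.47, SE, edgeR adjusted p = 0.470), and no Fntb exon overlaps the Rab15 tag. The other 9 neighbours not named so far were Pax7 and Arhgef10l beside Igsf21, Churc1 beside Rab15, Mars beside Arhgap9, Axin1 beside Arhgdig, Btf3 and Gm9465 beside Tmem171, and Slc39a14 and Polr3d beside Piwil2. Their log2 differences lay between -0.52 and 0.24, with edgeR adjusted p of 0.519 or more.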

How the data were processed

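Tag counts of 15 SOLiD SAGE libraries were analysed, 7 knockout and 8 control, grouped by sample title; libraries were treated as independent mice, because mice and libraries are equal in number per the labels. The authors deposited raw counts per gene symbol and normalized signal values, which are those counts over a library-wide size factor (relative deviations up to 5.4e-10). Per the submitters' processing notes DESeq2 was used, with mm10 and GRCm38.p1; aligner, counter and gene annotation are not stated in the labels. The 360 empty lines of the count table held no counts. The smallest gene total was 22, so the table may lack rarer genes.

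The test across genes was the edgeR 4.0.16 fit (R 4.3.3, robust quasi-likelihood test, TMM scaling, filterByExpr with a minimum count of 10, Benjamini-Hochberg adjustment); standard errors are the log2 fold change over the square root of F. Correlations used log2 CPM with a prior count of 2. Likeness needed a mean of 20 counts. Libraries of a group differed by more than counting noise (smallest chi-square per degree of freedom 11.5). The fits and the permutation test were tested on simulated data. Named were the 6 genes, Fabp3, Cpt1b, up to 4 called genes (or the closest) of each family list, the 3 genes most like each of the 6, and the nearest tested gene on each side. The genes, lists and alternatives were chosen with earlier results of these data known. Alternatives were RLE scaling, library totals, the authors' size factors, DESeq2 1.42.0, no filter, a prior count of 0.5, linear CPM, Spearman's coefficient, pooled deviations (100000 resamples), a replicate block and leaving out libraries. Coefficients of variation from counting cover counting error only. Of the 11062 tested genes 10117 were placed by symbol and 726 through a synonym. Some related genes and 1 of the most like genes are not reported here.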

Additional observations from a re-analysis of the deposited data

Results flagged for a closer look

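In the controls, 2 values stood apart from the other 7 of their gene, by the gap to the nearest other control over the whole range of log2 CPM. For Arhgap9 it was control replicate 4, the highest, with 8.41 CPM and a gap of 0.637 of the range. For Piwil2 it was control replicate 1, the lowest, with 0.621 CPM from 5 tags and a gap of 0.590 of the range. Chance flags about 1 in 20 groups. No knockout value of the 6 genes or Fabp3 was flagged, and knockout replicates 1, 2 and 7 of Piwil2 form a spread rather than a single gap.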

How the results depend on the processing

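The log2 fold changes of the 6 genes kept their sign in all 21 alternatives and moved by less than 1 SD between replicates, over 2.86 to 3.16 for Igsf21, 2.32 to 2.60 for Rab15, 1.90 to 2.10 for Arhgap9, 2.44 to 2.77 for Arhgdig, 2.31 to 2.89 for Tmem171 and 1.56 to 2.58 for Piwil2. The genes were chosen for this difference in the same libraries, so the kept sign is no support for it. The SD used was pooled over both groups. For Piwil2 it is a wide measure, since the SD of log2 CPM was 1.65 among knockouts and 0.469 among controls. The counts of correlated pairs after adjustment were 0 in each alternative run, and those under an unadjusted p of 0.05 were 0 to 4. Leaving out a knockout leaves 6, where a single pair could reach no adjusted p under 0.0583, so those fits say nothing about stability. Of all genes, edgeR called 185 higher and 55 lower, DESeq2 310 and 145, the fit with the replicate block 98 and 19, and the fit without control replicate 7 and knockout replicate 4 255 and 148. Fits without a single library called 131 to 311 higher and 30 to 154 lower, with both maxima without control replicate 7. The related families had 1 gene called higher and 0 lower. The replicate block gave 0 higher, DESeq2 1 lower, and leaving out control replicate 7 and knockout replicate 4 gave 1 lower. Fits without a single library gave 0 to 1 higher and 0 to 1 lower. The cause of these changes was not tested. Same replicate numbers do not mark pairs: deviations of same-numbered libraries correlated over genes between -0.450 and 0.314, and 1 of 7 knockouts correlated best with the control of its own number. Calls lost in the fit with the replicate block therefore say little about stability. Arhgdig and the control levels of Igsf21, Rab15, Tmem171 and Piwil2 are limited by depth.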
